A study of Sus scrofa with 50 samples.

Results

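The change in transcript levels from the morula to the hatched blastocyst was compared between pig embryos that developed in vivo and pig embryos produced in vitro. All morulae and hatched blastocysts of the series were used, which were 40 of its 50 single-embryo libraries, with 10 embryos in each of 4 groups. The remaining 10 embryos were at an earlier stage and were not used here. In vivo morulae and hatched blastocysts were flushed from the uterus of inseminated crossbred gilts on the fourth and on the sixth day after insemination. In vitro embryos came from slaughterhouse oocytes that were matured, fertilized with semen of the same Duroc boar and cultured under low oxygen. The compacted in vitro morulae were collected shortly after the fourth day and the in vitro hatched blastocysts after the seventh day following fertilization. The step was therefore longer in vitro, and embryo age, length of the step and source cannot be told apart. In vitro morulae were also taken from embryos preselected at first cleavage, and the methods do not state such a selection for in vitro hatched blastocysts.

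A morula is a compact ball of similar cells. During blastocyst formation its outer cells become the trophectoderm, an epithelium held together by keratins and junctions that pumps sodium and water into the cavity and later forms the placenta. Inner cells form the pluripotent inner cell mass, from which the hypoblast, an endoderm-like layer that secretes lipoproteins and matrix, separates before and after the embryo hatches from the zona. Transcripts stored in the oocyte are degraded over the cleavage divisions, while the genome of the embryo takes over.

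The size of the source difference in the change was expressed as the interaction of source and stage, which is the change from morula to hatched blastocyst in vitro minus the same change in vivo, on log2(CPM + 1). CPM are read counts per 1000000 reads of the effective library size, and M stands for 1000000 reads. A positive interaction thus means that a gene changed more positively in vitro. Such a value can arise because the sources differed at the morula stage, at the hatched blastocyst stage, or at both, so the source gap (in vitro minus in vivo) at each stage is given beside it. The gaps, the changes within each source and the interaction share embryos and are not independent of each other. A gene was called at an adjusted p below 0.001 and an absolute value above 1 in limma, with p-values adjusted over all 21442 genes tested.

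Libraries held 4.23 ± 1.36 M reads assigned to genes (mean ± SD, n = 40), with a range of 1.44 to 7.71 M, and 3 embryos were below 2 M. Correlations of log2 levels between embryos of a group had a median of 0.933 in in vivo morulae, 0.946 in in vitro morulae, 0.98 in in vivo and 0.971 in in vitro hatched blastocysts, so that morulae varied more than hatched blastocysts. The in vivo morulae B2 and G1 had the fewest genes detected and the in vitro morula B2 the most. The study found that RNA quality differed between the sources at the morula stage (cDNA profiles, library smears and alignments), and for that reason compared in vivo with in vitro embryos only as hatched blastocysts. The interaction uses the morulae of both sources, and the part of RNA quality in any result that turns on the morulae was not tested. The embryos of a group came from a few gilts or a few fertilization experiments, so some share a mother or an experiment and are not independent samples of a source. No label ties an embryo to either, and p-values measure only the spread between these embryos and may be too small for a difference between sources. In whole embryos, fewer cells of a type and less RNA per cell cannot be told apart.

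Of the 21442 genes, 384 (1.79%) had a more positive and 579 (2.7%) a more negative change in vitro. The called interactions had a median of 2.07 among the former and of −2.30 among the latter, against a median of −0.12 over all genes tested. Among all 963 called genes, 39.9% were thus in the positive direction. Without the normalization factor of the authors the counts were 262 and 854 genes, a positive share of 23.5%, and with quantile normalization they were 406 and 446. The negative direction thus held more genes under each of these scalings. With edgeR on the reads the counts were 406 and 262, with DESeq2 581 and 478, and with a pseudocount of 10 on the log scale 333 and 271, so which direction held more genes depended on the model and the pseudocount. No gene was called in the opposite direction by these alternatives.

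Within each source, the step itself gave 1236 genes higher (5.76%) and 655 lower (3.05%) in hatched blastocysts in vivo. In vitro, 2058 genes were higher (9.6%) and 2297 lower (10.7%). Between sources, in vitro morulae had 1099 genes higher (5.13%) and 627 lower (2.92%) than in vivo morulae, whereas in vitro hatched blastocysts had 211 higher and 211 lower than in vivo hatched blastocysts (0.984% each). The median absolute gap over all genes tested was 0.32 in morulae and 0.18 in hatched blastocysts.

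The gap was larger in morulae for 264 of the 384 genes with a more positive change in vitro (68.8%) and for 419 of the 579 with a more negative change (72.4%), against 64.2% of all genes tested. A gap was called at the morula stage alone for 213 of the 384 and 363 of the 579 genes. It was called at the hatched blastocyst stage alone for 73 and 95 genes, at both stages for 10 and 9, and at neither for 88 and 112. The genes of largest interaction accordingly fell into 4 patterns. Epithelial genes were low in in vitro morulae, and amino acid and cytokine genes were high in in vitro hatched blastocysts. Endoderm and adhesion genes were low in in vitro hatched blastocysts, and oocyte and other transcripts were higher in in vitro than in in vivo morulae.

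**Figure D1:**
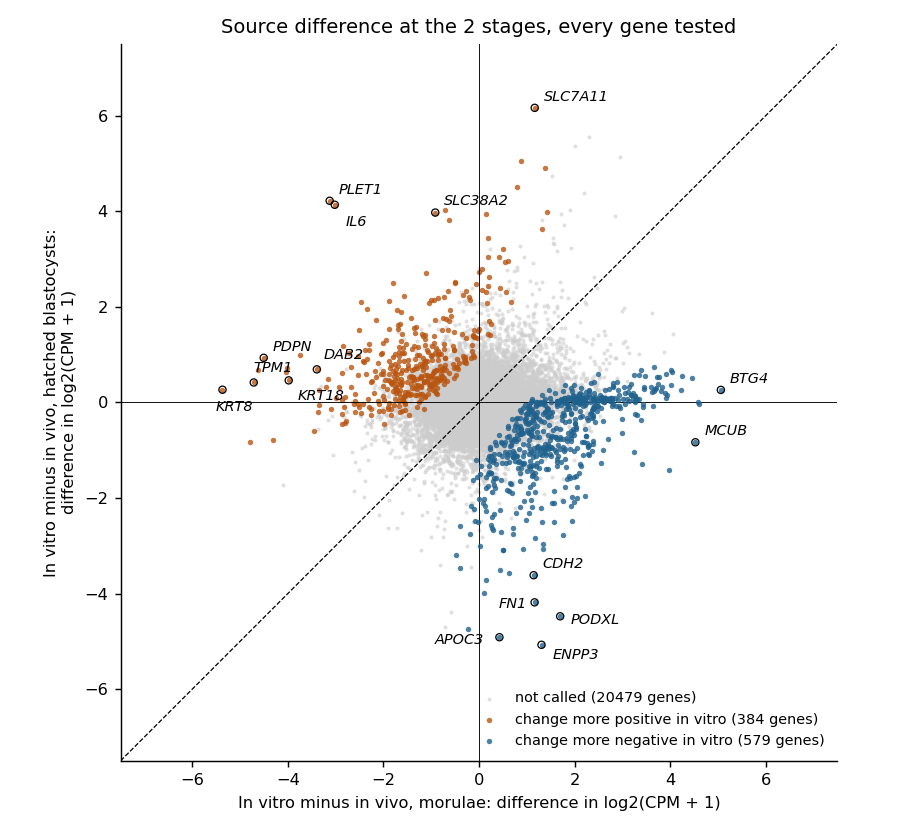
Source gap of every gene tested, as in vitro minus in vivo difference in mean log2(CPM + 1), in morulae (x axis) and in hatched blastocysts (y axis). The dashed line marks equal gaps at both stages (no interaction), and colored points are the 384 and 579 called genes, of which the named ones are circled. KRT8, KRT18 and TPM1 lie at the far left with gaps near 0 in hatched blastocysts, SLC7A11 lies high above a small gap in morulae, and APOC3 and ENPP3 lie far below it.

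Over all 21442 genes tested, 1.79% were called more positive and 2.7% more negative, and 8355 had a positive interaction. Counts of list members are to be read beside these shares. Epithelial keratins and cytoskeletal genes showed the strongest source difference among the gene lists examined. Of 20 members tested, 11 had a more positive change in vitro, none a more negative one, and the median interaction was 1.91. In morulae 10 of the 20 were called lower in vitro, whereas in hatched blastocysts 1 was called higher and none lower. The 11 called interactions lay between 1.59 and 5.63, and between 9 and 13 members were called under the other scalings, models, filters and selections of embryos, apart from 4 with the replicate block.

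KRT8 encodes the type II keratin of simple epithelia and lies on chromosome 5 (18172423 to 18180277, Sscrofa11.1). In in vivo morulae its CPM had a lowest value of 194, a median of 514 and a highest value of 1899. In in vitro morulae these values were 0, 15.8 and 176, and the groups did not overlap. In hatched blastocysts they were 2101, 2533 and 4901 in vivo and 1638, 3689.6 and 4757 in vitro, and these groups overlapped. KRT8 therefore rose in both sources, by 2.35 in vivo and 7.98 in vitro, and the interaction was 5.63 ± 0.77 (SE, adjusted p = 1.19e-06). Its partner KRT18, chosen after its values were seen, had an interaction of 4.44 (adjusted p = 5.3e-08), with a gap of −3.98 in morulae and of 0.46 in hatched blastocysts.

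TPM1 encodes a tropomyosin that stabilizes actin filaments (chromosome 1, 108986981 to 109016090). Its CPM was 100.2, 363 and 986 (lowest, median and highest) in in vivo morulae and 0, 12.6 and 41 in in vitro morulae, without overlap. Hatched blastocysts of both sources overlapped, with 176, 305 and 425 in vivo and 274, 396 and 673 in vitro. Thus TPM1 did not change over the step in vivo beyond the spread (−0.07 ± 0.40, adjusted p = 0.9875) and rose by 5.06 in vitro (interaction 5.13 ± 0.57, adjusted p = 2.62e-08). The call was kept under all alternatives run.

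PDPN, a mucin-like membrane glycoprotein of epithelia (chromosome 6, 73019063 to 73050000), had 17.1, 354 and 597 CPM in in vivo morulae and 0.871, 7.79 and 112 in in vitro morulae. The in vivo morula A3 was the lowest of its group and the only one within the range of the in vitro morulae. In hatched blastocysts PDPN reached 707, 1447 and 1840.3 CPM in vivo and 1511, 2468 and 4091 in vitro. The interaction was 5.44 ± 0.76 (adjusted p = 1.42e-06).

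Among trophectoderm transcription factors, 4 of 22 members tested changed more positively in vitro (TFAP2A, GATA2, MSX2 and KLF5) and none more negatively, with a median interaction of 0.87. TFAP2A, an AP-2 factor of trophoblast and surface ectoderm (chromosome 7, 7221654 to 7244626), had 2.6, 77.5 and 203 CPM in in vivo morulae and 0.79, 6.24 and 18.8 in in vitro morulae. In hatched blastocysts its medians were equal to 3 digits, at 244 CPM in each source. The low end of the in vivo morulae consisted of G1 and A3, which overlapped the in vitro range. The interaction was 3.30 ± 0.67 (adjusted p = 0.000371).

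GATA2, a zinc finger factor of trophoblast (chromosome 13, 71981139 to 71997626), was listed at 0 in 7 of 10 in vitro morulae, with a highest value of 4.7 CPM, and had 0.698, 21.9 and 41.3 CPM in in vivo morulae. It rose by 3.21 in vivo and by 6.06 in vitro, to medians of 138 and 95.4 CPM (interaction 2.85 ± 0.57, adjusted p = 0.000349). With a pseudocount of 10 its call was lost (0.83). Other factors that define trophectoderm did not pass the test, namely CDX2 (1.02, adjusted p = 0.09) and GATA3 (3.20, adjusted p = 0.00331), and TFAP2C had an interaction of 0.01.

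DAB2, an adaptor of clathrin-mediated endocytosis that is abundant in trophectoderm and extraembryonic endoderm (chromosome 16, 24590638 to 24776937), had a step of 0.04 in vivo. Its CPM was 298, 1156 and 1737 in in vivo morulae and 549, 1116 and 1432 in in vivo hatched blastocysts. In vitro it was 9.48, 118 and 254 in morulae and 1437, 1698 and 1913 in hatched blastocysts. The sources did not overlap in morulae, where the gap of −3.39 was called. In hatched blastocysts every in vitro value lay above every in vivo value, though narrowly, at 1437 against 1432 CPM. The gap of 0.69 was not called there (adjusted p = 0.2015 in limma). The interaction was 4.08 ± 0.45 (adjusted p = 2.62e-08). Of 29 lysosomal and endocytic genes tested, 4 were called more positive and 1 more negative in vitro, with a median interaction of 0.47.

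**Figure D2:**
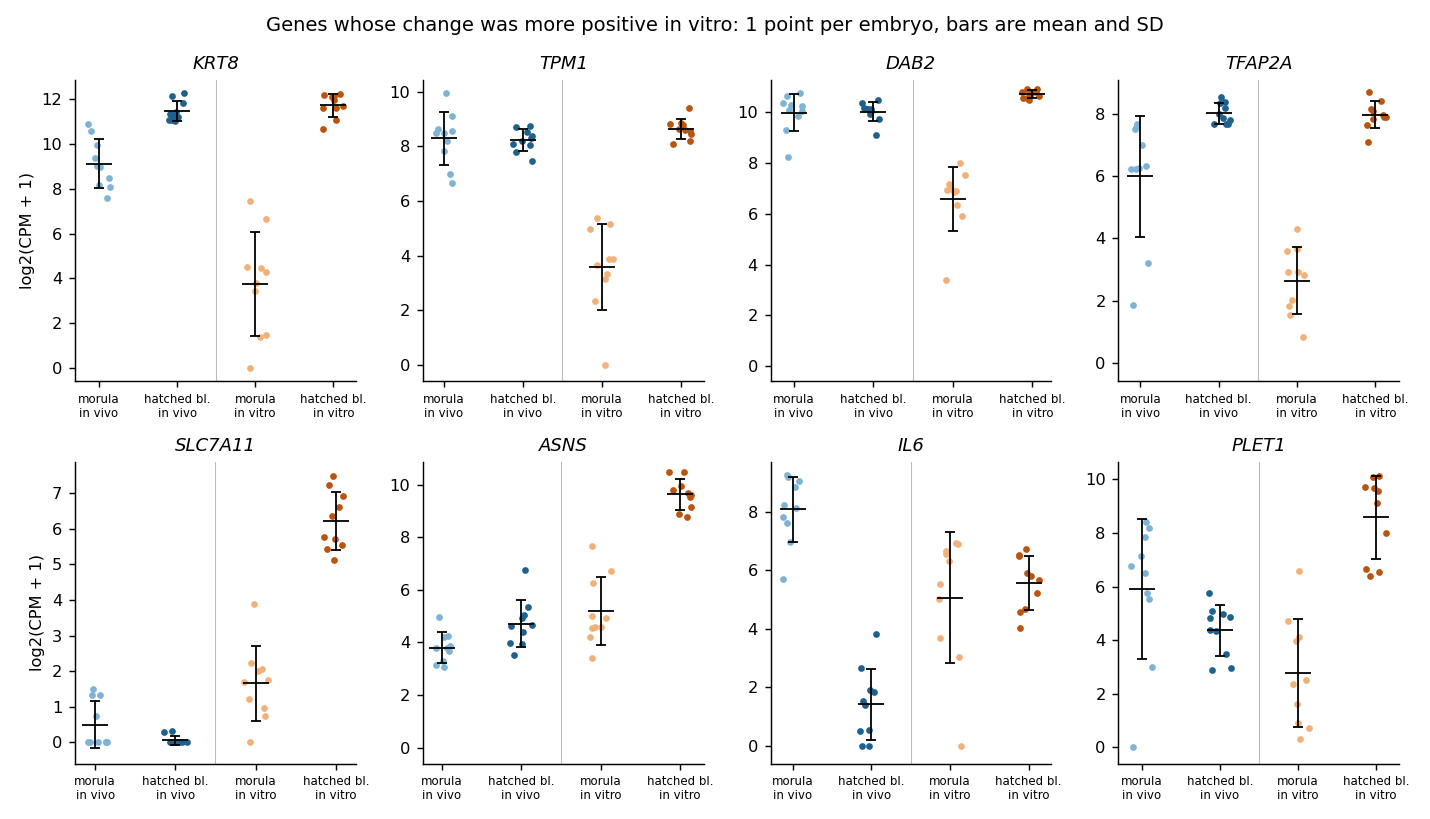
Level of 8 genes with a more positive change in vitro, as log2(CPM + 1), 1 point for each of 10 embryos per group, with the mean and SD in black. KRT8, TPM1, DAB2 and TFAP2A are low in in vitro morulae. In hatched blastocysts KRT8, TPM1 and TFAP2A overlap between sources, and DAB2 lies slightly higher in vitro without overlap. The in vitro hatched blastocysts are above those in vivo for SLC7A11, ASNS, IL6 and PLET1.

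Junction genes followed the keratins with smaller interactions. Of 25 tight, adherens and gap junction genes tested, 4 were called more positive (DSG2, DSC2, MARVELD2 and PKP2), none more negative, and the median was 0.58. Without the normalization factor 2 were called. DSG2 and DSC2 encode the desmosomal cadherins desmoglein and desmocollin. DSC2 had 95.3, 198 and 921 CPM in in vivo morulae and 45.7, 60.2 and 105 in in vitro morulae, whose ranges overlapped. In hatched blastocysts it had medians of 325 in vivo and 378 in vitro (interaction 2.07 ± 0.35, adjusted p = 4.09e-05). DSG2 had an interaction of 2.40 ± 0.45 (adjusted p = 0.000128), with a gap of −2.50 in morulae and of −0.11 in hatched blastocysts.

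Blastocoel transport genes split in direction, with 2 of 16 members called more positive and 4 more negative. The counts were 1 and 1 with a pseudocount of 10, 1 and 2 in edgeR and 2 and 2 with weights per group. SLC26A4 encodes pendrin, an anion exchanger (chromosome 9, 107365121 to 107431065). It had 12.2, 184 and 262 CPM in in vivo morulae against 0.223, 2.95 and 38.6 in in vitro morulae, and medians of 171 and 88.3 in in vivo and in vitro hatched blastocysts (interaction 3.96 ± 0.69, adjusted p = 5.06e-05). AQP11, an intracellular aquaporin (chromosome 9, 12065550 to 12076339), went the other way. Its in vivo hatched blastocysts had 11.9, 34 and 111 CPM and its in vitro hatched blastocysts 0.3, 2.5 and 18.7 (interaction −4.31 ± 0.80, adjusted p = 0.000128), and the call was lost with a pseudocount of 0.1.

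Further genes of largest positive interaction shared the low level in in vitro morulae. GLRX, the cytosolic glutaredoxin that reduces protein-glutathione disulfides (chromosome 2, 102425580 to 102437851), was among the most abundant transcripts of this kind. It had 1583, 5871 and 11025 CPM in in vivo morulae and 0.263, 442 and 2056 in in vitro morulae, of which G1 was the lowest. In hatched blastocysts it had medians of 4266 CPM in vivo and 6818 in vitro (interaction 4.66 ± 0.91, adjusted p = 0.000254). PRKCB (4.72 ± 0.67), a protein kinase C, was called with a gap of −4.01 in morulae. RNASE12 (4.74 ± 0.94), a member of the ribonuclease A family, lost its call without the embryos below 2 M reads and with a pseudocount of 0.1.

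Oxidative phosphorylation subunits encoded in the nucleus had a median interaction of 0.84 over 64 members, of which 58 were positive, but 3 passed the threshold and none was called more negative. In vitro morulae had 20 members called lower than in vivo morulae, whereas no member was called at the hatched blastocyst stage. ATP5G1 encodes the c subunit of ATP synthase (chromosome 12, 25110540 to 25113481). It had 599.7, 1516 and 3312 CPM in in vivo morulae, 164, 323 and 992 in in vitro morulae, and medians of 3525 and 3665 in in vivo and in vitro hatched blastocysts (interaction 2.15 ± 0.36, adjusted p = 2.91e-05). SDHD, an anchor subunit of succinate dehydrogenase, had 1.81 ± 0.36 (adjusted p = 0.000276) and lost its call without the embryos below 2 M reads. Without the in vivo morulae B2 and G1, which had the fewest genes detected, 13 members were called, and without the embryos below 2 M reads only 1 was called.

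A second pattern comprised genes that were high in in vitro hatched blastocysts. SLC7A11, SLC38A2 and ASNS rose in vitro, whereas IL6, given below, fell in vivo and was near level in vitro. Among plasma membrane amino acid carriers, 7 of 24 members tested changed more positively and 1 more negatively, with a median of 0.74. SLC7A11, the cystine carrier of the glutamate antiporter (chromosome 8, 88608083 to 88690589), was listed at 0.24 CPM or less in every in vivo hatched blastocyst and had 34, 67.5 and 180 CPM in in vitro hatched blastocysts. Morulae had at most 1.85 CPM in vivo and 13.8 in vitro. SLC7A11 rose by 4.57 in vitro and had a step of −0.43 in vivo (interaction 5.00 ± 0.49, adjusted p = 2.68e-09), a call that was kept under all alternatives run. The size of the interaction depended on the pseudocount and the model, between 2.81 and 7.52, since the in vivo groups were near 0.

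SLC38A2 carries small neutral amino acids with sodium (chromosome 5, 77113491 to 77127715). In vivo it had 33.1, 42.4 and 72.4 CPM in morulae and 4.06, 10.1 and 15 in hatched blastocysts, a fall without overlap. In vitro it had 6.7, 24.1 and 116 CPM in morulae and 55.7, 185 and 395 in hatched blastocysts. SLC38A2 therefore fell in vivo (−2.15) and rose in vitro (2.74), with an interaction of 4.89 ± 0.48 (adjusted p = 2.68e-09).

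ASNS, asparagine synthetase (chromosome 9, 77318341 to 77336290), had 7.4, 12.8 and 30.4 CPM in in vivo morulae, 10.6, 23.8 and 106 in in vivo hatched blastocysts and 9.74, 26.1 and 199.5 in in vitro morulae. In vitro hatched blastocysts had 433, 802 and 1434 CPM and overlapped none of the other groups. The interaction was 3.53 ± 0.52 (adjusted p = 4.49e-06). ASNS and SLC7A11 are induced by ATF4, the transcription factor of the amino acid and stress response. Of 25 ATF4 targets tested, 4 were called more positive (SLC7A11, JDP2, ASNS and SLC3A2) and none more negative, and the median was 1.05. In hatched blastocysts 15 of the 25 were called higher in vitro, and in morulae 7 were called higher and 1 lower.

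JDP2, a repressor of the AP-1 family (chromosome 7, 98574386 to 98616480), had at most 1.68 CPM in in vivo hatched blastocysts against 8.63, 22.2 and 41.3 in vitro (interaction 4.44 ± 0.50, adjusted p = 3.46e-08). Cytosolic aminoacyl tRNA synthetases, which load tRNAs with amino acids, had 4 of 23 members called more positive (GARS, CARS, SARS and MARS) and none more negative, with a median of 0.64. The count fell to 1 without the normalization factor or with thinned reads, and to 2 with a pseudocount of 0.1, with weights per group or without the embryos below 2 M reads. GARS, which loads glycine, had 61.7, 84 and 105 CPM in in vivo and 288, 427 and 753 in in vitro hatched blastocysts. Its morulae overlapped, with medians of 57.9 in vivo and 36 in vitro, and the interaction was 2.60 ± 0.26 (adjusted p = 3.86e-09). The call of CARS (2.39 ± 0.50) was lost in several alternatives and on leaving out any of 7 single embryos.

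Serine, one-carbon and amino acid synthesis genes were mixed, with 3 of 24 called more positive and 2 more negative and a median of 0.70. ALDH18A1, which makes the proline precursor pyrroline-5-carboxylate, fell in vitro (−2.52) and had an interaction of −3.11 ± 0.58 (adjusted p = 0.000146), which edgeR did not call. NRF2, glutathione and thioredoxin genes had 4 of 33 members called more positive and a median of 0.71, and included GLRX and NQO1, a quinone reductase. NQO1 had 1.74, 8.74 and 22.2 CPM in in vitro hatched blastocysts and at most 2.31 in vivo (interaction 2.29 ± 0.40, adjusted p = 5.07e-05), a call that neither edgeR nor DESeq2 made. It was also lost with a pseudocount of 0.1 or 10 and with weights per group.

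IL6, an interleukin (chromosome 9, 91506421 to 91510830), was the only called gene among 33 tested of a list of ligands and receptors, which does not hold every ligand (PDGFC and RSPO3, given elsewhere, were called and are not in it). In in vivo morulae it had 51.6, 289 and 602 CPM and in in vivo hatched blastocysts 0, 1.78 and 13.1, so it fell by 6.65 without overlap. In vitro it was near level, with 0, 61.6 and 122 CPM in morulae and 15.4, 52.3 and 105 in hatched blastocysts (step of 0.50, adjusted p = 0.52). The interaction of 7.15 ± 0.85 (adjusted p = 8.53e-08) kept its call under all alternatives run. The gap was called lower in in vitro morulae (−3.02) and higher in in vitro hatched blastocysts (4.14).

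PLET1, a trophoblast surface protein (chromosome 9, 39936355 to 39949709), had the highest positive interaction of the genes named, at 7.34 ± 1.09 (adjusted p = 4.49e-06). In vivo its CPM was 0, 98.5 and 341 in morulae and 6.33, 23.6 and 53.5 in hatched blastocysts. In vitro it was 0.231, 4.46 and 95.5 in morulae and 83.2, 653 and 1126 in hatched blastocysts, which did not overlap the in vivo hatched blastocysts. The PLET1 gap of −3.13 in morulae, which overlapped, was not called (adjusted p = 0.00182 in limma), nor was its step of −1.55 in vivo (adjusted p = 0.158). PDGFC, a platelet-derived growth factor ligand (4.56 ± 0.50, adjusted p = 2.62e-08), also had gaps of opposite sign. Its gap was −2.47 in morulae and 2.10 in hatched blastocysts, and both gaps were called.

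EGLN3, an oxygen-sensing prolyl hydroxylase, and SQLE, squalene epoxidase of cholesterol synthesis, were also higher in in vitro hatched blastocysts (gaps of 2.70 and 1.93). Their interactions were 3.80 ± 0.79 and 2.54 ± 0.43, of which that of EGLN3 was not called at thinned reads or with a pseudocount of 0.1. Of 20 hypoxia response genes tested, 2 were called more positive (EGLN3 and BNIP3) and 1 more negative (AK4), with a median of 0.19. ZMAT3, a p53 target that binds RNA, had an interaction of 2.73 ± 0.59 (adjusted p = 0.000774), which was close to the threshold and was lost on leaving out single embryos of every group. SQLE was the only one of 23 cholesterol synthesis genes called, and ZMAT3 the only one of 25 p53 and apoptosis genes. CYP19A3, an aromatase, shares sequence with the other porcine aromatase copies and is therefore uncertain. It had 0.87, 3.64 and 13.8 CPM in in vitro and at most 0.721 in in vivo hatched blastocysts (interaction 3.06 ± 0.55, adjusted p = 8.85e-05), and lost the call with a pseudocount of 10.

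The third pattern comprised genes that rose in vivo and did not rise, or rose less, in vitro. Of 16 hypoblast genes tested, 4 were called more negative (FN1, RSPO3, SOX17 and FOXA2) and 1 more positive (LAMB1, not called by edgeR or DESeq2), with a median of −1.42, which was the lowest among the lists of 10 or more members. In hatched blastocysts 6 were called lower in vitro and none higher, and in morulae 1 was called lower and none higher. With edgeR and DESeq2, 2 members each were called more negative.

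FN1, fibronectin (chromosome 15, 117658158 to 117737145), had 0.405, 23.4 and 42.2 CPM in in vivo morulae and 11.5, 25.8 and 180.2 in in vitro morulae. In vivo hatched blastocysts had 232, 341 and 663 CPM, and in vitro hatched blastocysts 0.458, 14.6 and 262. FN1 thus rose by 4.50 in vivo and had a step of −0.85 in vitro (adjusted p = 0.291), with an interaction of −5.35 ± 0.91 (adjusted p = 3.88e-05). RSPO3, a secreted enhancer of WNT signaling (chromosome 1, 35985985 to 36066432), had 5.23, 11.5 and 21.4 CPM in in vivo hatched blastocysts and at most 3.16 in in vitro hatched blastocysts, in a comparison without overlap (interaction −3.59 ± 0.42, adjusted p = 5.3e-08). SOX17, a defining endoderm factor, was listed at 0 in all 10 in vivo morulae and had an interaction of −2.19 (adjusted p = 0.00038), which depends on the pseudocount of 1 CPM. GATA6, another hypoblast factor, did not pass the test (1.01, adjusted p = 0.00898). Of the 16 hypoblast genes tested, 5 had a positive interaction. Median CPM of HNF4A went from 4.33 to 6.4 in vivo and from 0 to 4.13 in vitro. For PDGFRA it went from 54.4 to 38.2 in vivo and from 15.7 to 13.2 in vitro. GATA4 and APOA1 went the other way. Their medians went from 17.4 to 19.7 and from 4.11 to 3176 in vivo, and from 19.1 to 9.9 and from 0 to 192 in vitro.

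Apolipoproteins and lipid export genes had 6 of 24 members called more negative and 1 more positive (APOA2), with a median of −0.58, and 2 were called more negative by edgeR and by DESeq2. APOC3, an apolipoprotein of triglyceride-rich particles (chromosome 9, 44211171 to 44213538), was listed at 0 in all 10 in vivo morulae and in 8 of 10 in vitro morulae. Hatched blastocysts had 155, 371 and 691 CPM in vivo and 0, 9.12 and 254 in vitro. APOC3 rose in both sources, by 8.45 in vivo and 3.11 in vitro (interaction −5.34 ± 0.92, adjusted p = 4.6e-05), and the call was lost in edgeR and DESeq2.

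APOE, an apolipoprotein that binds the LDL receptor family (chromosome 6, 51373113 to 51375333), had 16.5, 43.5 and 102 CPM in in vivo and 0, 2.22 and 45.1 in in vitro hatched blastocysts (interaction −3.99 ± 0.68, adjusted p = 4.35e-05). The in vitro hatched blastocysts were heterogeneous in these genes. The embryos C3, E3 and F4 had the highest values of both APOC3 (254, 141 and 76 CPM) and APOE (45.1, 20 and 25.3 CPM), and C3 and E3 also had the highest FN1 (262 and 126 CPM). At the other end, B4 was listed at 0 for APOC3 and APOE and had 0.458 CPM of FN1.

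Adhesion and surface genes of this pattern included PODXL, ENPP3, CDH2 and FLRT3. PODXL encodes podocalyxin, a sialomucin of apical membranes (chromosome 18, 17444339 to 17494507). It had 3.18, 4.77 and 33.4 CPM in in vivo morulae and 5.26, 24.3 and 100.1 in in vitro morulae. In hatched blastocysts it had 65.5, 87.1 and 137 CPM in vivo and 0, 3.58 and 22.9 in vitro, without overlap. PODXL rose by 3.62 in vivo and fell by 2.56 in vitro (interaction −6.18 ± 0.74, adjusted p = 9.59e-08).

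ENPP3, an ectonucleotidase (chromosome 1, 31859180 to 31932617), was listed at 0 in all 10 in vivo morulae and had 12.2, 31.9 and 439 CPM in in vivo hatched blastocysts. In vitro it had at most 5.22 CPM in morulae and 2.47 in hatched blastocysts. Its interaction of −6.38 ± 0.67 (adjusted p = 1.04e-08) was the most negative of the genes named, and its size depends on the pseudocount. CDH2, N-cadherin (chromosome 6, 112396713 to 112629073), had 14.3, 30.5 and 73.2 CPM in in vivo and 0, 1.77 and 21.7 in in vitro hatched blastocysts (interaction −4.76 ± 0.66, adjusted p = 1.42e-06). FLRT3, a fibronectin leucine-rich transmembrane protein, had 12.1, 45 and 175 CPM in in vivo and at most 11.3 in in vitro hatched blastocysts, and its call (−4.51 ± 0.66) was lost in edgeR and DESeq2.

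CYP11A1, the side-chain cleavage enzyme that starts steroid synthesis (chromosome 7, 59172829 to 59188479), was listed at 0 in all 10 in vivo morulae and had at most 0.192 CPM in in vitro morulae. In hatched blastocysts it had 2.21, 11.3 and 75.7 CPM in vivo and 0, 0.413 and 3.6 in vitro (interaction −3.03 ± 0.46, adjusted p = 6.03e-06). Neither edgeR nor DESeq2 called it, and its call was lost with a pseudocount of 10. Of 23 steroid and prostaglandin synthesis genes tested, 2 were called more positive and 3 more negative, with a median of 0.08.

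**Figure D3:**
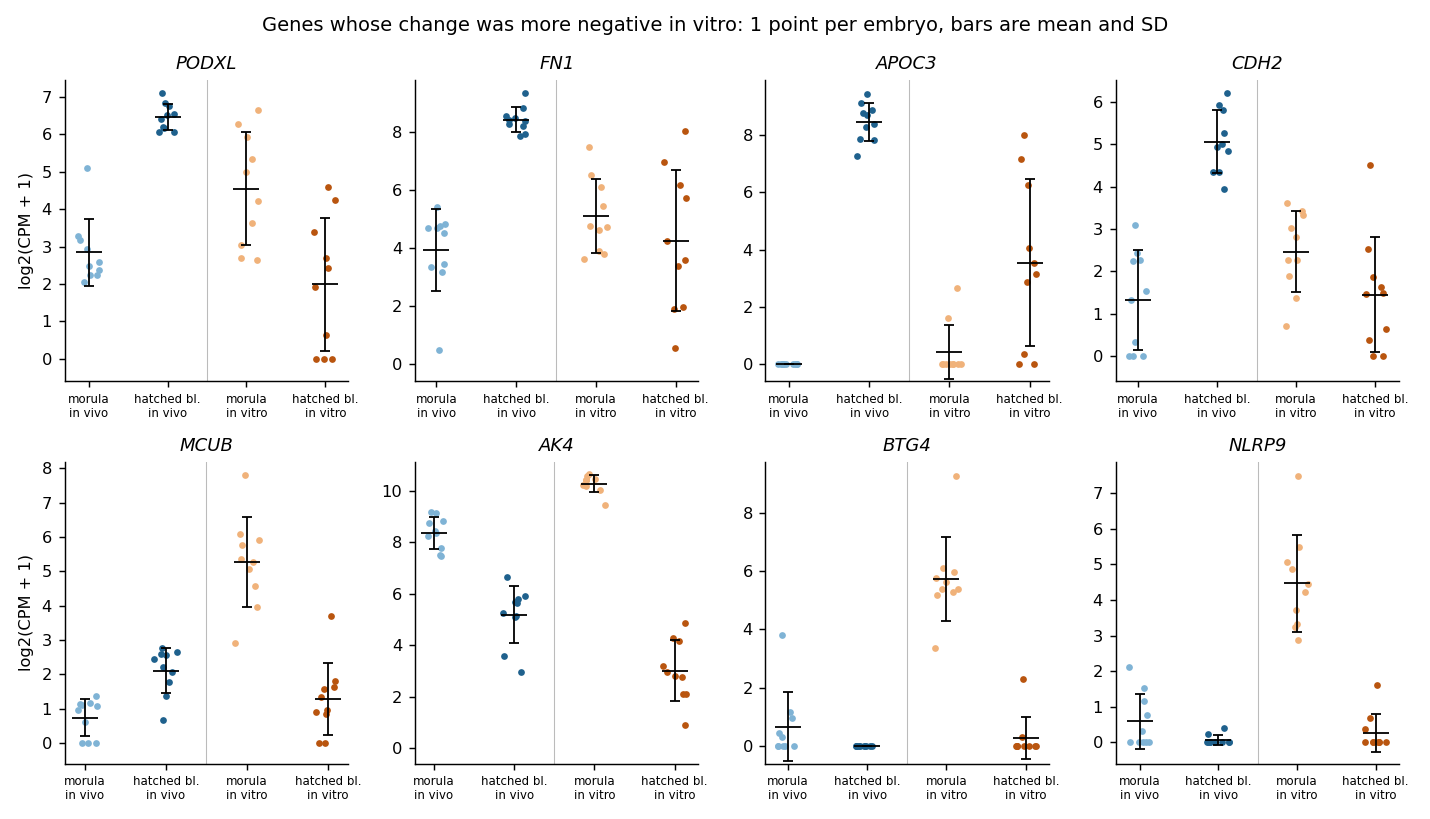
Level of 8 genes with a more negative change in vitro, as log2(CPM + 1), 1 point for each of 10 embryos per group, with the mean and SD in black. PODXL, FN1, APOC3 and CDH2 rise in vivo and are lower and widely spread in in vitro hatched blastocysts, whereas MCUB, AK4, BTG4 and NLRP9 are highest in in vitro morulae.

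The fourth pattern comprised transcripts that were higher in in vitro than in in vivo morulae and low in hatched blastocysts of both sources. Of 33 maternal oocyte transcripts tested, 10 were called more negative in vitro and none more positive, with a median of −1.24. In morulae 16 were called higher in vitro and none lower, and in hatched blastocysts none was called in either direction. Fewer of these interactions were called by the other models and pseudocounts, with 2 called by edgeR, 4 by DESeq2 and 5 each with a pseudocount of 0.1 or 10. The direction of the list median was negative in each of them.

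BTG4, the adaptor through which maternal mRNAs are deadenylated (chromosome 9, 39253116 to 39281327), had 9.39, 44.6 and 608 CPM in in vitro morulae and 0, 0.118 and 13 in in vivo morulae. It was listed at 0 in all in vivo hatched blastocysts and in 8 of 10 in vitro hatched blastocysts. The highest value, 608 CPM, belonged to the in vitro morula B2, which also had the most genes detected. The gap of 5.06 in morulae was called, and the interaction was −4.80 ± 0.62 (adjusted p = 3.82e-07). NLRP9, a cytoplasmic protein of oocytes, had 6.32, 19.3 and 179 CPM in in vitro and 0, 0.125 and 3.31 in in vivo morulae, without overlap (interaction −3.68 ± 0.52, adjusted p = 2.03e-06). BECN2, an autophagy protein related to beclin, had 8.01, 40 and 220 CPM in in vitro and 0, 0.71 and 19.9 in in vivo morulae (−4.58 ± 0.63, adjusted p = 1.09e-06). The interactions of BTG4, NLRP9 and BECN2 were not called by edgeR or DESeq2.

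Homeobox genes of genome activation had 2 of 10 members called more negative, which were ARGFX and DUXA. ARGFX (chromosome 13, 138927391 to 138928391) had 287, 491 and 1391 CPM in in vitro morulae and 19.8, 47.2 and 195 in in vivo morulae, without overlap, and at most 3.94 CPM in any hatched blastocyst. It fell by 5.43 in vivo and fell by 8.15 in vitro (interaction −2.73 ± 0.48, adjusted p = 5.71e-05). DUXA fell likewise in both sources (interaction −2.37 ± 0.48, adjusted p = 0.0004). Neither was called by edgeR or DESeq2 or with a pseudocount of 0.1, and DUXA was not called at thinned reads. The calls thus depended on the model, while the interaction stayed negative in every setting. It lay between −3.12 and −1.58 for ARGFX and between −2.70 and −1.07 for DUXA.

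AK4, a mitochondrial adenylate kinase (chromosome 6, 147177029 to 147257799), crossed between sources. It had 705, 1366 and 1599 CPM in in vitro morulae against 175, 342 and 575 in in vivo morulae, without overlap. In hatched blastocysts, which overlapped, the order of the medians was reversed, with 6.84, 43.5 and 100.1 in vivo and 0.87, 6.41 and 27.8 in vitro, and both gaps were called (1.92 and −2.16). The interaction was −4.08 ± 0.52 (adjusted p = 3.1e-07). MCUB, an inhibitory subunit of the mitochondrial calcium uniporter (chromosome 8, 112539188 to 112651417), had 6.51, 38.8 and 221 CPM in in vitro and at most 1.57 in in vivo morulae. Its step was 1.37 in vivo and −3.99 in vitro (interaction −5.36 ± 0.59, adjusted p = 2.62e-08).

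Further genes with high levels in in vitro morulae included SYTL2, a RAB27 effector of vesicle transport (−5.40 ± 0.70), and MFSD2A, a carrier of lysophosphatidylcholine (−4.69 ± 0.76). TFRC, the transferrin receptor of iron uptake, had 64.7, 104 and 223 CPM in in vitro morulae and 4.08, 9.78 and 105 in in vivo morulae (−3.09 ± 0.54, adjusted p = 5.07e-05). SLC16A1, a monocarboxylate carrier of lactate and pyruvate, had 652, 1022 and 1371 CPM in in vitro and 119.5, 288 and 2494 in in vivo morulae (−2.38 ± 0.48, adjusted p = 0.000346). Both TFRC and SLC16A1 fell in each source and were not called by edgeR or DESeq2, and SLC16A1 was not called with weights per group. SLC16A1 was the only one of 30 glycolysis and glucose uptake genes called.

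KLHL13, an adaptor of a cullin ubiquitin ligase (−4.54 ± 0.66, adjusted p = 3.09e-06), had a called gap of −2.78 in hatched blastocysts. Among pluripotency factors, 2 of 19 members tested were called more negative, LIN28B and DPPA4, and none more positive. DPPA4, a chromatin factor of pluripotent cells, had 27, 50.1 and 84.7 CPM in in vitro and 6.28, 15.7 and 48.7 in in vivo morulae (−2.34 ± 0.38, adjusted p = 1.69e-05). LIN28B, which blocks maturation of the let-7 microRNA, had at most 5.85 CPM in any embryo (−1.99 ± 0.30, adjusted p = 5.75e-06), and its call was lost in edgeR, at thinned reads and with a pseudocount of 10. The defining factors POU5F1 (0.96, adjusted p = 0.111) and SOX2 (−2.32, adjusted p = 0.00797) did not pass the test.

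Of 30 cyclins and cell cycle kinases tested, 4 were called more negative (CCNB3, CCNE1, CCNA2 and AURKB) and 1 more positive (BUB1), with a median of −0.71. CCNE1, the cyclin of entry into S phase (chromosome 6, 39919541 to 39933224), had 28.7, 50.6 and 67.7 CPM in in vivo and 62.1, 104 and 177 in in vitro morulae. In hatched blastocysts it had 25.8, 35.7 and 50.7 CPM in vivo and 6.38, 12.9 and 22.9 in vitro, without overlap. The step in vivo did not pass the test (−0.41) and the fall in vitro was 2.85 (interaction −2.44 ± 0.27, adjusted p = 2.76e-08).

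Nucleolar factors of ribosome assembly had a median of −0.69 over 50 members, of which 2 had a positive interaction and 4 were called more negative (MRTO4, NOP56, NIP7 and WDR12). The count was 10 without the normalization factor, 7 with quantile normalization and 2 in edgeR. NOP56, a core protein of box C/D snoRNPs (chromosome 17, 32960099 to 32965396), had medians of 407 and 626 CPM in in vivo and in vitro morulae and of 529 and 211 in the hatched blastocysts (interaction −1.58 ± 0.27, adjusted p = 3.45e-05). Cytosolic ribosomal proteins had a median of 0.43 over 78 members, 65 of them positive, and none was called. With quantile normalization that median was −0.04, and without the in vivo morulae B2 and G1 5 members were called. No direction is therefore given for them. RPLP0, the most abundant member on average, had an interaction of 0.51 ± 0.38 (adjusted p = 0.37), and PSMB6, the most abundant of 31 proteasome subunits of which none was called, had 0.38 ± 0.27 (adjusted p = 0.344).

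Single members were called in several other lists. Of all genes tested, 1.79% were called more positive and 2.7% more negative. A single call is therefore not read as a result about its list. XBP1, a transcription factor of the unfolded protein response, was the only one of 26 heat shock and unfolded protein genes called (2.24 ± 0.44, adjusted p = 0.000272). It had a gap of −1.84 in morulae and lost its call at thinned reads and without the embryos below 2 M reads. JARID2, a cofactor of Polycomb repressive complex, was the only one of 29 chromatin genes called (1.58 ± 0.30, adjusted p = 0.000146). It fell in vivo (−1.89), had a step of −0.31 in vitro and lost the call without the normalization factor. MSH6, a mismatch repair protein, was the only one of 32 DNA repair genes called (−1.46 ± 0.28, adjusted p = 0.000197), and edgeR did not call it. MX1, an interferon-induced GTPase, was the only one of 18 interferon response genes called (−2.30 ± 0.44, adjusted p = 0.000173). It was listed at 0 in all 10 in vivo morulae and reached 22.7 CPM in in vitro morulae, and its call was lost at thinned reads and with a pseudocount of 10.

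**Figure D4:**
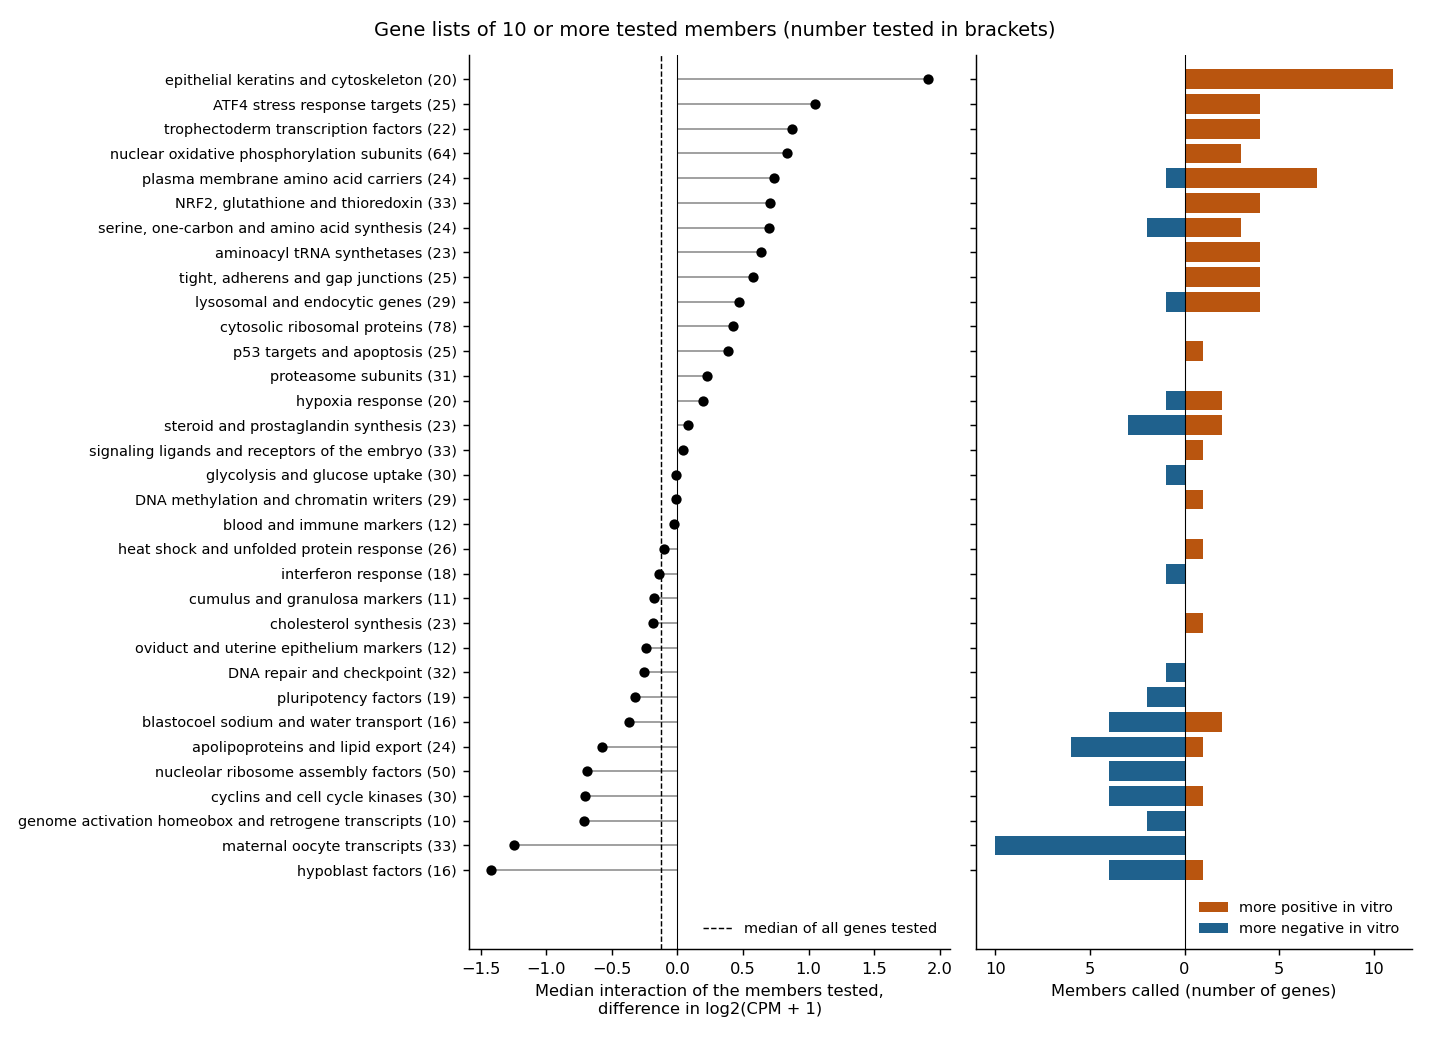
Left, median interaction of each gene list with 10 or more tested members, with the median of all genes (−0.12) dashed. Right, number of members called more positive (orange) or more negative (blue) in vitro. Keratins and cytoskeleton stand at the top with 11 members called and a median of 1.91, and hypoblast genes and oocyte transcripts at the bottom with medians of −1.42 and −1.24.

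Markers of other cells that could adhere to an embryo were checked. No member of the lists for sperm (8 tested), cumulus and granulosa cells (11), oviduct and uterine epithelium (12) or blood and immune cells (12) was called by limma. DESeq2 called HBB, a hemoglobin chain of red cells, more positive (5.99, adjusted p = 0.000827, against 2.39 and an adjusted p of 0.0154 in limma). The uterine factor HOXA10 (−1.34, adjusted p = 0.00233 in limma) was called more negative without the normalization factor and with weights per group. The summed level of the sperm list ranged from 28.2 to 63.3 CPM in in vivo morulae, 22.5 to 48.4 in in vitro morulae, 34.2 to 49.6 in in vivo and 33.9 to 63.2 in in vitro hatched blastocysts. Of its most abundant member ODF2, a component of outer dense fibers and centrosomes, the interaction was 0.66 ± 0.24 (adjusted p = 0.0485). The protamine gene PRM1 was listed at 0 in all 40 embryos, and PRM2 and TNP1 reached at most 0.922 and 0.263 CPM. The sperm marker AKAP4 had medians of 0.935 CPM in in vivo and 1.55 in in vitro morulae, with highest values of 4.17 and 5.79. It was listed at 0 in 9 of 10 in vivo and all 10 in vitro hatched blastocysts. The study states that morulae still carried sperm on their zona. The cumulus list ranged from 55.5 to 117 CPM in in vivo and 17.1 to 86 in in vitro morulae, with medians of 90.0 and 52.3. Its most abundant member on average, SERPINE2 (1.53 ± 0.59, adjusted p = 0.0614), had medians of 77.7 and 24.8 CPM there. PTX3 was listed at 0 in all 40. In the same order of groups, the oviduct and uterine list ranged from 0.81 to 11 and 5.79 to 21.1 CPM and the blood list from 17.1 to 59.1 and 9.18 to 41.8 CPM, and PGR (−0.35 ± 0.55) and PECAM1 (1.46 ± 0.60) did not pass the test. In hatched blastocysts the blood list had 2.81, 7.25 and 11.2 CPM in vivo against 1.37, 20.8 and 49.3 in vitro. HBB had at most 1.44 CPM in in vivo and 0, 3.72 and 27.9 in in vitro hatched blastocysts. The part of sperm, blood or other adhering cells in any result was not tested.

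The breadth of the transcriptome also changed differently by source. After reads were thinned to 1438600 per embryo, in vivo morulae had 12106 ± 829 genes with at least 1 read and in vivo hatched blastocysts 12531 ± 374 (mean ± SD, n = 10 each). In vitro morulae had 14219 ± 868 and in vitro hatched blastocysts 12556 ± 508. The change was thus 425 genes in vivo and −1663 in vitro, and the difference of −2088 genes had an adjusted p of 2e-05 in a 2-sided permutation test with 100000 resamples, in a family of 2 measures (unadjusted p = 1e-05, the smallest these resamples can give). Every in vitro morula (13017 to 16152) lay above every in vivo morula (10439 to 12993), whereas hatched blastocysts overlapped.

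The share of reads in the 100 most abundant genes went the opposite way. It was 25.6% ± 3.44 in in vivo and 21.2% ± 1.93 in in vitro morulae, and 26.5% ± 1.43 in in vivo and 26.8% ± 1.21 in in vitro hatched blastocysts (n = 10 each). The change was 0.897 percentage points in vivo and 5.65 in vitro, with a difference of 4.76 points (permutation test, adjusted p = 0.00101).

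**Figure D5:**
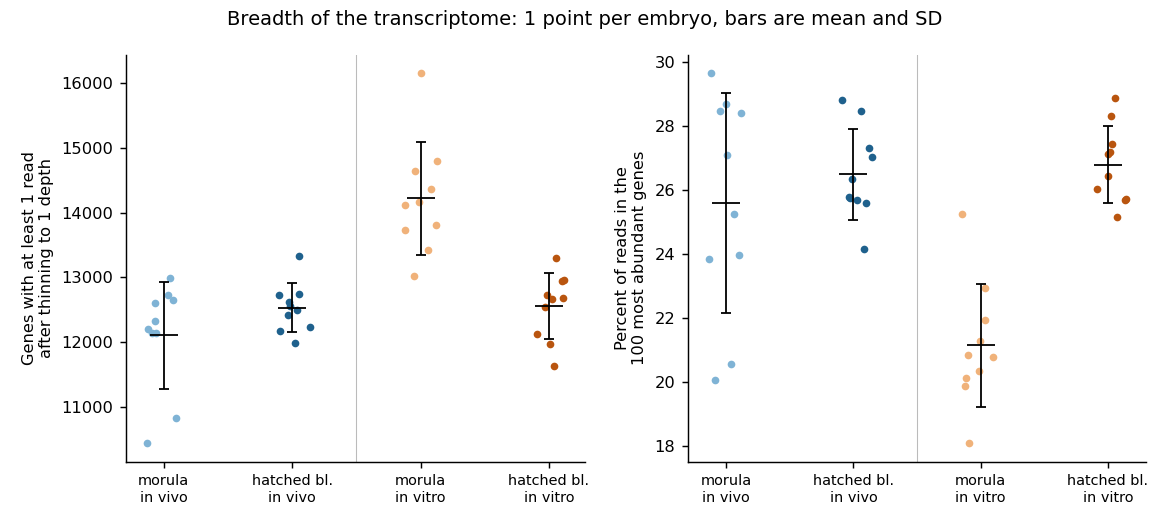
Genes with at least 1 read after thinning to 1438600 reads (left) and percent of reads in the 100 most abundant genes (right), 1 point for each of 10 embryos per group, with the mean and SD in black. In vitro morulae detect 13017 to 16152 genes, all above the in vivo morulae at 10439 to 12993, and hatched blastocysts of both sources overlap in both measures.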

How the data were processed

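Single embryos had been lysed whole and sequenced after Smart-seq2 (oligo-dT priming, full-length cDNA). Per the study and the labels, the authors clipped adaptors (Trim Galore), mapped to Sscrofa11.1 (HISAT2) and worked in edgeR; the read counter is not given in the sources used here. The deposited signal values are CPM of the effective library size, that is, gene counts divided by a normalized library size. In all 40 embryos 100% of the values were whole reads within 0.1, and these recovered reads served the count models. Columns of the authors' own comparisons (fold changes and p-values) were not used.

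Morula and hatched blastocyst tables were joined on 30321 identifiers, all with an entry in the RefSeq gene table of Sscrofa11.1 (17413 with a symbol other than a LOC number), and 21442 genes over 0.5 CPM in at least 1 embryo were tested. The interaction was fitted with limma (3.58.1, trend) in R 4.3.3 on log2(CPM + 1) with 4 group means, in place of the edgeR test of the study, with its thresholds (adjusted p below 0.001, absolute log2 value above 1, Benjamini-Hochberg). Alternatives used edgeR 4.0.16 and DESeq2 1.42.0 on reads, other pseudocounts, filters and scalings, weights, the authors' sex labels, thinned reads, a replicate block and fewer embryos. The fit was tested on simulated data. Genes detected were compared by permuting residuals of the additive model over the 40 embryos.

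Named genes were those called with a symbol other than a LOC number and a highest group mean of at least 20 CPM that had the 12 largest positive or negative interactions, the 2 most changed called members of each list, and the most abundant member of lists without a call. A gene of this rule is not reported here. Others are named as chosen after their values were seen or as cell type markers or called members of a short list. Lists are described without a test. The comparison and the lists were chosen with earlier results of these data known. Genes of mitochondrial DNA were not analysed here. A single read stood for 0.133 to 0.87 CPM, depending on the effective library size of the embryo, so low values carry little precision.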

Additional observations from a re-analysis of the deposited data

Results flagged for a closer look

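Counts of genes whose change differed between sources were 384 (more positive in vitro) and 579 (more negative in vitro). Genes detected after thinning changed by −2088 more in vitro than in vivo, and the share of reads in the 100 most abundant genes by 4.76 percentage points more. These differences were tested directly, as described above.

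Single embryos stood apart from the other 9 of their group in 10 of 104 checks, over 24 genes of largest interaction and both per-embryo measures. For normally distributed values chance gives about 1 in 20. That rate does not hold for groups with many embryos at 0, such as BTG4 (8 of 10) and ENPP3 (5 of 10) in in vitro hatched blastocysts. Groups with every embryo at 0 could not be flagged, so the count is not read against chance. Among in vivo morulae, A3 was low in PDPN (17.1 CPM) and high in BECN2 (19.9 CPM), D2 was high in BTG4 (13 CPM), B2 was low in FN1 (0.405 CPM) and G1 was high in PODXL (33.4 CPM). Among in vitro morulae, G1 was low in GLRX (0.263 CPM) and B2 was high in BTG4 (608 CPM). Among in vitro hatched blastocysts, B4 was high in BTG4 (3.9 CPM) and MCUB (11.9 CPM), and A4 was high in ENPP3 (2.47 CPM). Leaving out any of these embryos changed none of the calls of these genes.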

How the results depend on the processing

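No called gene was called in the opposite direction under any alternative, and no named gene that was called changed sign. Changes of sign without a call were not counted for the other called genes. The count of genes with a more negative change in vitro was 271 with a pseudocount of 10, 262 in edgeR and 367 with reads thinned to a common depth, against 579, and the count with a more positive change was 581 in DESeq2, against 384. Leaving out single embryos gave 332 to 493 genes more positive and 503 to 699 more negative. Without the in vivo morulae B2 and G1, chosen after seeing the data, the counts were 539 and 606, and without the in vitro morula B2 and the embryos below 2 M reads, also chosen then, 355 and 458. Of 62 named genes called, 60 kept the call on leaving out any single embryo (the exceptions were ZMAT3 and CARS), and 36 kept it in every setting other than the block. A replicate block on the embryo codes left 23 and 11 genes called. In that fit only embryos of the 14 codes shared by both sources within a stage inform the interaction, so it has less power. How much of the fall in counts comes from this was not tested. Deviations of 14 pairs of a shared code, of the same stage and different source, had correlations of −0.277 to 0.261, with 2 above 0.1. This check covered such pairs only, and whether the codes stand for a shared batch was not tested. The difference in the change of detected genes was −2783 without thinning and −1873 without the in vitro morula B2. Levels near 1 CPM rest on few reads, and interactions of genes listed at 0 in a group depend on the pseudocount.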
